A study of Mus musculus with 18 samples.

Results

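Gene expression was compared between lungs of mice given RECTAS and lungs of mice given its vehicle alone. The comparison rests on the 6 lung libraries among the 18 of the series, 3 from RECTAS-treated and 3 from vehicle-treated animals, and on the 15699 of 55401 listed genes that reached at least 1 TPM in at least 3 of those 6 libraries. TPM is a gene's share of all transcripts in a library, corrected for length and scaled to a fixed total. All animals were C57BL/6N mice aged 7 weeks. The treated animals received RECTAS by mouth at 100 mg/kg, suspended in 0.5% carboxymethyl cellulose (CMC), and the control animals received CMC only. Each was dosed 2 times with an interval of 4 h, and tissue was taken 8 h after the first dose, so each lung library is a single time point. The labels give no sex. They number the libraries 1 to 3 in each group without saying which animal each came from, so the p-values below measure the spread between these libraries only. The other 12 libraries, from liver and colon of both treatments, were used only to test whether the lung difference departed from theirs and to trace RNA of another tissue.

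RECTAS, a name formed from "rectifier of aberrant splicing", is a small molecule known for correcting the splicing of mutant transcripts. Splicing of weak exons depends on SR proteins, whose phosphorylation by the CLK and SRPK kinases sets how they bind the spliceosome. The lung holds alveolar type 1 cells, which carry gas exchange, alveolar type 2 cells, which make surfactant, club and ciliated cells of the airways, a dense capillary bed, fibroblasts and resident macrophages. Its cells respond strongly to glucocorticoid hormone, to stretch and to interferon. The values here are per gene, so they show how much transcript of a gene was estimated and not which exons it held.

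The defining markers placed all 6 libraries in lung. Sftpc, the surfactant protein C gene of alveolar type 2 cells, stood at 31807, 28612 and 31434 TPM with vehicle and at 33437, 31816 and 35899 TPM with RECTAS. Ager, the receptor gene that marks alveolar type 1 cells, stood at 2105, 2357 and 2147 TPM with vehicle and at 2412, 2408 and 2332 TPM with RECTAS. Scgb1a1, the club cell secretoglobin, alone made up 11.5% to 14.9% of all TPM. Between 24084 and 25227 genes were above 0 in a lung library, the correlation of log2(TPM + 1) between lung libraries was 0.988 to 0.994, and TPM keeps no record of depth, which is therefore unknown.

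Liver RNA was present in unequal amounts, and RNA of cardiac-type muscle varied as well. Alb, the albumin gene of hepatocytes, stood at 9.07, 292 and 782 TPM in vehicle libraries 1, 2 and 3 and at 0.81, 28.5 and 334 TPM in RECTAS libraries 1, 2 and 3, between 0.00127% and 1.23% of its mean in vehicle liver. The summed TPM of the 40 hepatocyte markers ran from 854 to 4792 with vehicle and from 902 to 2464 with RECTAS, and none of the 40 was at 0 in all 6 libraries. The 19 markers of cardiac and pulmonary vein muscle summed to 341 to 848 TPM with vehicle and 178 to 1566 TPM with RECTAS. Whether this RNA came from heart or from pulmonary veins, which belong to the lung, was not tested. Vehicle library 1 also stood apart in Cyp1a1, a P450 induced through the aryl hydrocarbon receptor, at 45 TPM against at most 0.65 TPM in the other 5. The part of these differences in the results below was not tested except where a value is given.

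After limma's moderated test on log2(TPM + 1) with Benjamini-Hochberg adjustment over all 15699 genes, 1 gene, 0.00637% of those tested, passed an adjusted p of 0.05. That gene, Gm25791 (ENSMUSG00000065226), rose. It is annotated as a small nucleolar RNA (snoRNA) of 137 bases at chr9:15314845-15314981 on the + strand of GRCm38. It lies inside Taf1d, a subunit of the complex that starts ribosomal RNA transcription by RNA polymerase I, where it overlaps a Taf1d exon at chr9:15313990-15315131 and a miRNA gene, Gm49349, that was at 0 in all 18 libraries. Its sequence is shown because it is the single gene called; it is read from GRCm38 with the GENCODE M21 annotation, 5′ to 3′, and the capitals mark the last ACA, 3 bases before the 3′ end. Such an ACA is the end box of H/ACA snoRNAs, which guide the conversion of uridine to pseudouridine in other RNAs.
Gm25791: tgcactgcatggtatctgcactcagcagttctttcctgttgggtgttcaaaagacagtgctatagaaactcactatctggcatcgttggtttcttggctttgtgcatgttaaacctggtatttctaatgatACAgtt

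Gm25791 was listed at 0 in all 3 vehicle libraries and reached 13.4, 22.4 and 20.7 TPM in RECTAS libraries 1, 2 and 3. It passed the low-value filter through the RECTAS libraries alone, so the same high group let it into the test and set its difference. The groups did not overlap, and the adjusted p was 0.00148 by limma. Across the alternative settings its adjusted p ran from 0.000408 to 0.0894, and the highest value, in 1 fit of all 18 libraries, ends the call. Over the series it was above 0 in 0 of 9 vehicle libraries and 5 of 9 RECTAS libraries, the other 2 being a colon library at 7.63 TPM and a liver library at 22.5 TPM. Of the 8 snoRNA genes inside Taf1d, 4 were at 0 in all 18 libraries. Among the other 3, Gm24455 was at 17.2 TPM in RECTAS lung library 3, at 0 in the other 5 lung libraries, and above 0 in 3 RECTAS and 0 vehicle libraries of the series. Gm22620 and Gm22579 were at 0 in all 6 lung libraries and in every RECTAS library. Gm22620 was above 0 in 1 vehicle library, from colon, at 12.3 TPM, and Gm22579 in 2, also from colon, at 7.67 and 15.8 TPM. The host gene Taf1d stood at 25.4, 22.4 and 24.8 TPM with vehicle and at 27.6, 27.9 and 29.5 TPM with RECTAS, a log2 difference of 0.22 with an unadjusted p of 0.0157 and an adjusted p of 0.317. All 3 RECTAS values of Taf1d lay above all 3 vehicle values. Another snoRNA gene inside a host, Gm24523 in the ribosomal protein gene Rpl30 at chr15:34440791-34440922 on the - strand, was singled out after its values were seen because it stood the other way. It was at 16.7, 21.6 and 28.6 TPM with vehicle and at 0, 0 and 3.70 TPM with RECTAS, with an unadjusted p of 0.000419 and an adjusted p of 0.242. It would not have passed the filter without its vehicle libraries. In colon it was at 0 in all 3 vehicle libraries and at 39.7, 108 and 0 TPM with RECTAS, and the lung difference minus the colon difference was -7.81 on the log2 scale with an adjusted p of 0.335 in the interaction test. The libraries were made from poly(A) RNA, only 11 of 1507 annotated snoRNA genes passed the low-value filter in lung, and reads from Taf1d over the shared bases cannot be told apart from reads of the snoRNA at this level.

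**Figure D1:**
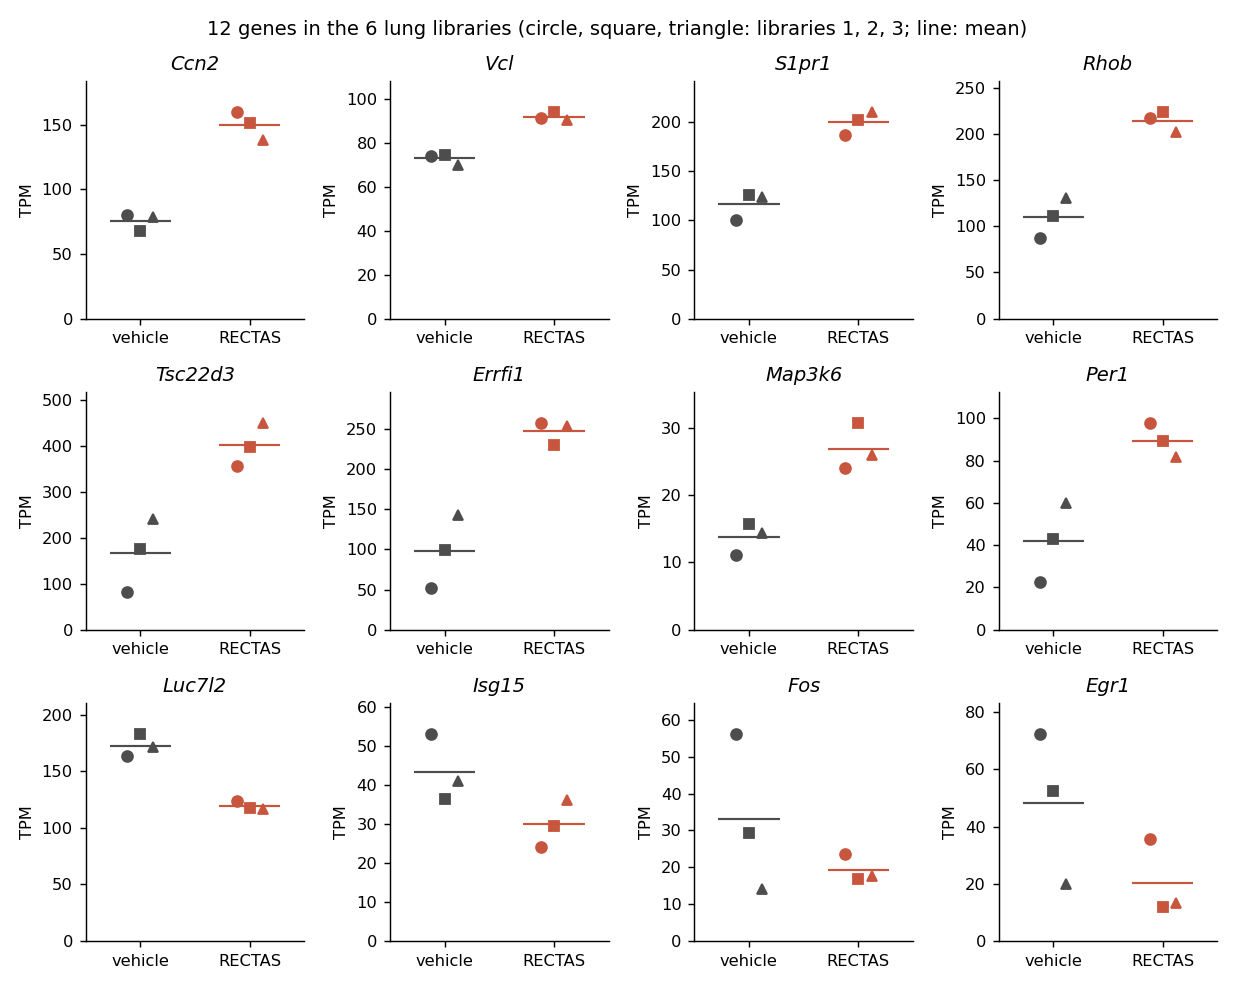
TPM (y axis, linear, from 0) of 12 genes in the 3 vehicle and 3 RECTAS lung libraries (x axis), with libraries 1, 2 and 3 as circle, square and triangle and the group mean as a line. The first 8 genes lie higher in every RECTAS library than in any vehicle library, Luc7l2 and Isg15 lie lower, and Fos and Egr1 overlap.

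No other gene passed, so every further difference below is given as a measured value that did not pass the adjusted threshold. At an unadjusted p of 0.05, 1977 genes (12.6%) passed, 1682 higher with RECTAS (10.7%) and 295 lower (1.88%). Counted instead by whether the 3 RECTAS values all lay on one side of the 3 vehicle values, 2535 genes (16.1%) lay wholly above and 500 (3.18%) wholly below. The log2 difference was above 0 for 65.4% of genes, and its median over all genes was 0.058. That lean depends on the scale. Scgb1a1 took 13.7%, 13.3% and 14.9% of TPM with vehicle and 12.2%, 11.8% and 11.5% with RECTAS, and TPM sum to a fixed total. After median ratio scaling the median difference was -0.0057, 7.88% of genes lay wholly above and 7.34% wholly below, and the share of higher genes among those with unadjusted p under 0.05 went from 85.1% to 50.9%. With Scgb1a1 removed and the other genes rescaled, an alternative chosen after seeing the data, the median was 0.026 and that share 70.4%. In 1 fit of all 18 libraries Rhob, Map3k6, Nes, S1pr1, Tinagl1, Klf4, Ddit4 and Nfkbia, described below, had adjusted p by limma from 0.0078 for Rhob to 0.0488 for Nfkbia. Counts for gene lists, which share some members, are therefore given on both scales below, first as deposited and then after scaling, to be read against 16.1% and 3.18%, or against 7.88% and 7.34%.

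**Figure D2:**
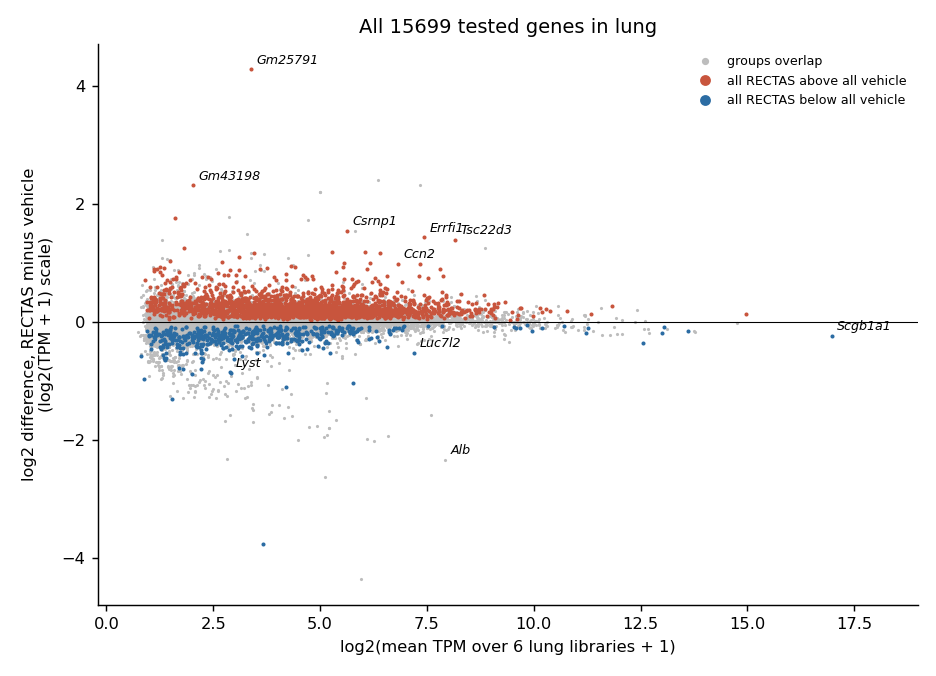
Log2 difference, RECTAS minus vehicle (y axis, log2(TPM + 1) scale), against the log2 of the mean TPM over the 6 lung libraries plus 1 (x axis) for the 15699 genes tested, coloured by whether all RECTAS values lay above, all below, or overlapped with the vehicle values. Genes wholly above outnumber those wholly below by 2535 to 500, and Gm25791 stands at the top.

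Targets of the glucocorticoid receptor had the highest median difference of the 57 gene lists examined. This receptor is a hormone-bound transcription factor whose quick targets include its own inhibitors and genes that slow growth. All 33 listed targets were measured and passed the filter, 31 were higher with RECTAS, and 23 lay wholly above vehicle and 0 wholly below, with 24 higher and 0 lower at an unadjusted p of 0.05. Their median log2 difference was 0.51 as deposited and 0.47 after scaling, where 22 lay wholly above and 0 below. Without each library in turn the median ran from 0.45 to 0.69. None passed limma's adjusted threshold.

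The feedback and signalling targets held the larger differences. All 16 were higher, 13 of them wholly above vehicle, with a median of 0.71. Tsc22d3, which encodes GILZ, a leucine zipper protein that restrains NF-kB and AP-1, stood at 81.8, 176 and 242 TPM with vehicle and at 357, 398 and 449 TPM with RECTAS. Its log2 difference was 1.39 with a standard error (SE) of 0.36 and an adjusted p of 0.274. Errfi1, a feedback inhibitor of the EGF receptor, stood at 52.5, 98.7 and 142 TPM with vehicle and at 257, 230 and 254 TPM with RECTAS. Per1, a clock repressor that the receptor also induces, stood at 22.7, 43.0 and 59.7 TPM against 97.7, 89.2 and 81.5 TPM. In these 3 genes vehicle library 1 was the lowest of all 6 and vehicle library 3 the highest of its group, yet no vehicle value reached a RECTAS value. Alb had the same order among the vehicle libraries. With log2 Alb as a covariate the list's median was 0.73.

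Several other targets stood wholly above vehicle with less spread. Map3k6, a stress-activated kinase, stood at 11.1, 15.8 and 14.4 TPM with vehicle and at 24, 30.7 and 26.0 TPM with RECTAS, with a log2 difference of 0.93 (SE 0.14) and an adjusted p of 0.237. Nfkbia, the inhibitor that holds NF-kB in the cytoplasm, stood at 113, 150 and 146 TPM against 226, 255 and 204 TPM. Cebpd, a transcription factor of the acute response, stood at 19.5, 28.3 and 46.9 TPM against 56.0, 63.1 and 60.8 TPM. In all 3 genes every RECTAS library was above every vehicle library, and vehicle library 1 was the lowest of the 6. Ddit4, an inhibitor of mTOR complex 1, also stood apart at 16.3, 22 and 30.9 TPM against 52.1, 63.6 and 42.1 TPM. Among targets in the cell cycle and metabolism group, 15 of 17 were higher and 10 lay wholly above, with a median of 0.45. Pdk4, which holds back pyruvate oxidation, stood at 4.23, 2.84 and 5.38 TPM against 6.80, 13.2 and 6.08 TPM, with RECTAS library 2 far above the rest.

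Not every classical target stood apart. Fkbp5, a chaperone of the receptor, was at 6.24, 8.25 and 9.02 TPM with vehicle and at 8.42, 12.1 and 12 TPM with RECTAS, so the groups overlapped through RECTAS library 1. The metallothionein genes Mt1 and Mt2 and the regulators Zbtb16 and Tat also overlapped, with Mt1 at 145, 134 and 141 TPM against 128, 154 and 115 TPM. Tat, a tyrosine aminotransferase made mainly in liver, was lowest in vehicle library 1 at 0.23 TPM and highest in RECTAS library 3 at 11.4 TPM.

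Promoters of these targets were searched for the palindrome GNACANNNTGTNC, the consensus of the receptor's response element, on both strands over the 250 bases before each RefSeq start. It was found at 4 of 39 starts, 10.3%, against 0.387% of 32851 starts in all genes. The 4 genes were Map3k6, Mt1, Sgk1 and Slc10a6, and the groups lay apart in 3 of them. A match is a description of the letters and not a bound site. Over the whole list 23 of 33 lay wholly above vehicle, against 3 of the 4 with a match. A link between the match and the measured difference was not tested. The 3 promoters with a match and with RECTAS above vehicle are printed as examples of the match. Sgk1 and Slc10a6 were picked for this after their values were seen. Sequences are from RefSeq on GRCm38.p6, 5′ to 3′ on the gene's strand, and the capitals mark the match. They are chr4:133240568-133240817 on the + strand for Map3k6, chr10:21993640-21993889 on the + strand for 1 of 6 starts of Sgk1, and chr5:103629404-103629653 on the - strand for Slc10a6.
Map3k6: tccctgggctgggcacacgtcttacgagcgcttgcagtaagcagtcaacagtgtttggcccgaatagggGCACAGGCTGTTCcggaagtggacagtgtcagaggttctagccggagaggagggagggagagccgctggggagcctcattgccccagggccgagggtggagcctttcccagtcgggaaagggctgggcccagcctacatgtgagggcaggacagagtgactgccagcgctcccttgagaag
Sgk1: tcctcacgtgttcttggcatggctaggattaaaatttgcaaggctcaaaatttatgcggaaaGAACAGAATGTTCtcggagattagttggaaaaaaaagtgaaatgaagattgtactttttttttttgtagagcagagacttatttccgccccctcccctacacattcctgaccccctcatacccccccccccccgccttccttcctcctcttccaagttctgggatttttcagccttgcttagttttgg
Slc10a6: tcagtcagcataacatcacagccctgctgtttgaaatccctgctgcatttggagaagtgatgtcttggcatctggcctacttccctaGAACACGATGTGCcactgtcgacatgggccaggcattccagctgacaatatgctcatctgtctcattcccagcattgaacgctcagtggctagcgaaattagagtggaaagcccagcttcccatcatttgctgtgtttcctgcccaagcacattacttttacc

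The match lay 181 to 169 bases before the start in Map3k6, 188 to 176 in Sgk1 and 163 to 151 in Slc10a6. Sgk1, a kinase that keeps the epithelial sodium channel at the cell surface, stood at 45.1, 59.1 and 65.6 TPM with vehicle and at 84.8, 97.9 and 88.8 TPM with RECTAS. Slc10a6, a carrier of sulphated steroids, stood at 9.47, 12.7 and 16.1 TPM against 24.4, 23.9 and 27.2 TPM. In both genes every RECTAS library was above every vehicle library. Mt1, the fourth gene with the match, overlapped as given above.

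**Figure D3:**
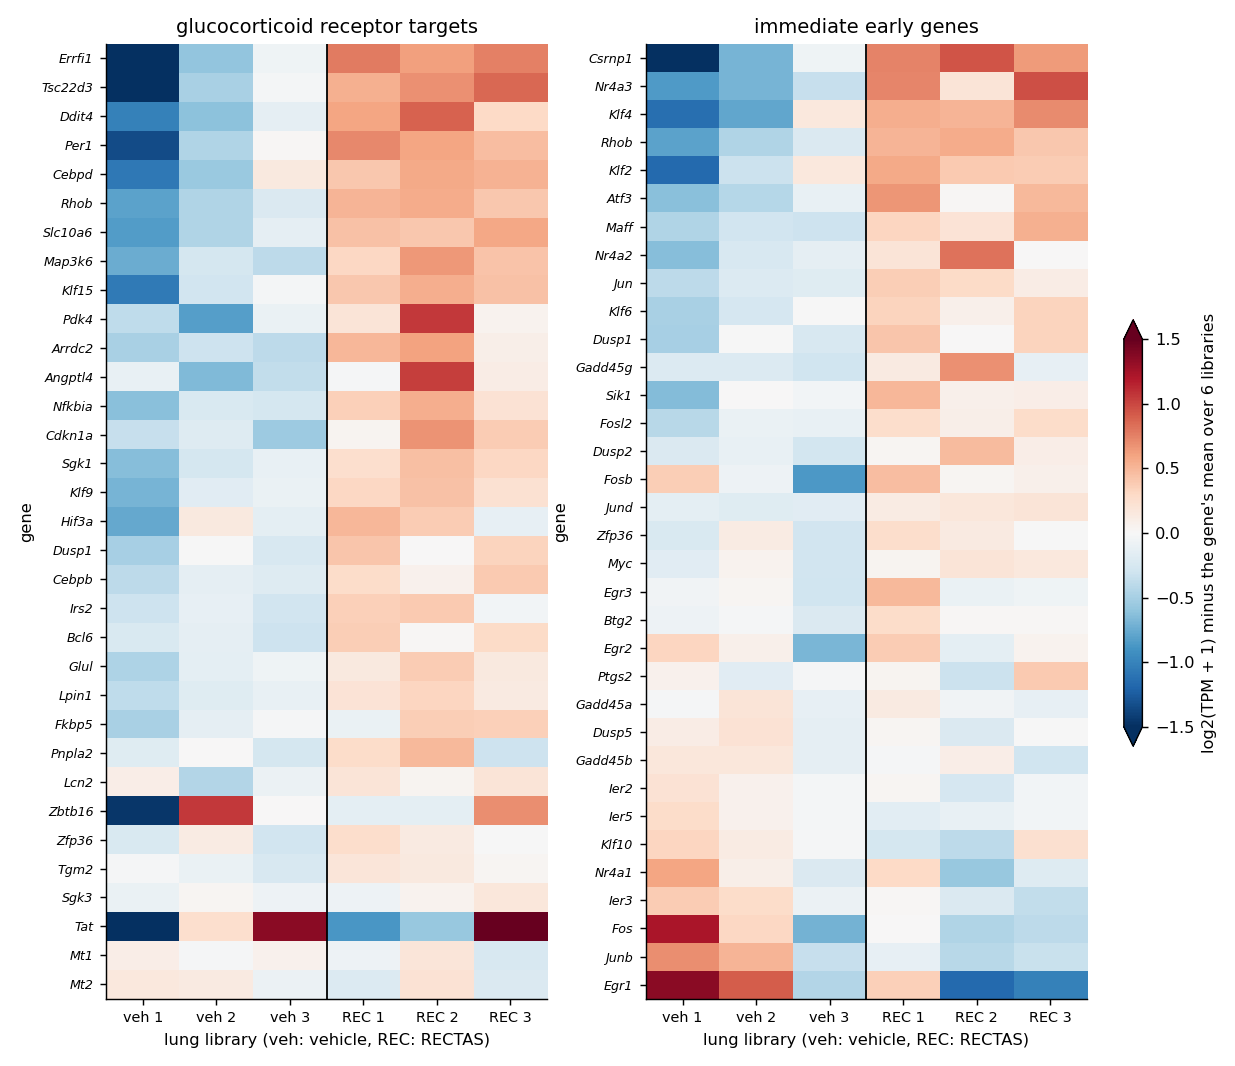
Heat maps of log2(TPM + 1) minus each gene's mean over the 6 lung libraries (colour, cut at 1.5 either side of 0), with genes as rows and libraries as columns, for the tested glucocorticoid receptor targets and immediate early genes in order of their difference. Vehicle library 1 is lowest for Errfi1, Tsc22d3, Per1 and Csrnp1 and highest for Fos, Junb and Egr1.

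Immediate early genes, which are transcribed within minutes of a stimulus and without new protein, did not all stand on the same side. Of 37 listed, 34 passed the filter, and 23 were higher with RECTAS, 17 wholly above and 1 wholly below, with a median of 0.29. At an unadjusted p of 0.05, 15 were higher and 1 lower, and none passed the adjusted threshold. After scaling, 13 lay above and 3 below with a median of 0.23. Without vehicle library 3 the median was 0.19.

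Members of the AP-1 family, the dimers of Fos and Jun proteins, took both courses. Jun stood at 106, 121 and 123 TPM with vehicle and at 180, 171 and 151 TPM with RECTAS. Jund stood at 120, 117 and 118 TPM against 144, 149 and 152 TPM, and Maff, a small Maf partner without a transactivating domain, at 12, 13.5 and 13.2 TPM against 21.1, 19.4 and 24.6 TPM. These 3 lay wholly above vehicle, with log2 differences of 0.52, 0.32 and 0.70. Fos itself stood at 56.1, 29.3 and 14.0 TPM with vehicle and at 23.6, 16.9 and 17.6 TPM with RECTAS, and Junb at 69.4, 60.5 and 32.9 TPM against 38.9, 31.5 and 33.4 TPM. Both were highest in vehicle library 1 and overlapped between groups. Egr1, a zinc finger factor induced beside Fos, did likewise at 72.2, 52.5 and 20 TPM against 35.6, 11.8 and 13.1 TPM.

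Other transcription factors of the list stood wholly above vehicle. Csrnp1, a nuclear factor first described as an axin-induced gene, stood at 13.3, 25.1 and 39.4 TPM with vehicle and at 69.7, 80.2 and 64.5 TPM with RECTAS, a log2 difference of 1.55 (SE 0.34), with an adjusted p of 0.264. This was the largest difference among protein-coding genes of at least 5 TPM whose groups lay apart. Klf4, a zinc finger factor of endothelium and epithelium, stood at 34.0, 43.4 and 84.2 TPM against 110, 108 and 124 TPM. Klf2, its relative induced by shear flow, stood at 90.9, 164 and 229 TPM against 304, 271 and 268 TPM. Nr4a3, an orphan nuclear receptor, was low throughout, at 0.75, 0.94 and 1.48 TPM against 4.23, 2.59 and 5.15 TPM. In Csrnp1, Klf4 and Klf2 vehicle library 1 was again the lowest.

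Dusp1, a phosphatase of MAP kinases, stood at 160, 225 and 191 TPM with vehicle and at 301, 226 and 285 TPM with RECTAS. RECTAS library 2 was only just above vehicle library 2, and the groups overlapped after scaling.

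Targets of YAP with TEAD and of SRF with its actin-sensing cofactors were nearly all a little higher. These 2 systems carry mechanical tension to the nucleus. All 33 listed genes passed the filter, 32 were higher, and 16 lay wholly above vehicle and 0 below, with a median of 0.24. At an unadjusted p of 0.05, 16 were higher and 0 lower, and none passed the adjusted threshold. After scaling 11 lay above and 0 below, with a median of 0.17. All 15 YAP-TEAD targets and all 13 SRF targets were higher, of which 9 and 5 lay wholly above.

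Ccn2, which encodes connective tissue growth factor and is a standard YAP target, had the second smallest p of all genes. It lies at chr10:24595442-24598683 on the + strand. It stood at 79.8, 67.4 and 78.6 TPM with vehicle, 75.3 ± 6.82 (SD, n = 3), and at 160, 151 and 138 TPM with RECTAS, 150 ± 10.7 (SD, n = 3). The 2 groups were far apart, with a log2 difference of 0.99 (SE 0.087) and an adjusted p of 0.0851 by limma, which ranged from 0.0276 with array weights to 0.469 without RECTAS library 1. With the libraries of each other tissue fitted alone, the log2 difference was 0.46 in liver and -0.060 in colon. The lung difference minus the liver difference had an adjusted p of 0.698 in the interaction test, and against colon the adjusted p was 0.9999.

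Srf, the factor itself, stood at 27.7, 25.8 and 24.7 TPM with vehicle and at 40.0, 34.5 and 33.4 TPM with RECTAS. Myh9, the heavy chain of non-muscle myosin, stood at 109, 112 and 102 TPM against 146, 159 and 128 TPM. Both lay wholly above vehicle. Lats2, the kinase that switches YAP off and is also its target, did so at 34.3, 36.1 and 36.8 TPM against 47.3, 47.0 and 40.8 TPM. Ccn1, the sister gene of Ccn2 and an immediate early gene as well, did not: it stood at 105, 94.2 and 74.9 TPM against 140, 72.3 and 76.9 TPM, with only RECTAS library 1 high.

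In these promoters GGAATG, the TEAD site, was found on either strand at 14 of 26 starts, 53.8%, against 12.6% of all 32851 starts. The CArG box, the site of SRF, was found at 6 of the 26, 23.1%, against 1.47% of all starts. Wholly above vehicle as deposited lay 6 of the 13 genes with GGAATG and 2 of the 5 with the CArG box. Vcl, which encodes the actin-anchoring protein vinculin of cell adhesions, held both, and its promoter is printed for that reason. It is chr14:20929148-20929397 on the + strand, from RefSeq on GRCm38.p6, 5′ to 3′, and the capitals mark the CArG box at 227 to 218 bases before the start and GGAATG at 143 to 138.
Vcl: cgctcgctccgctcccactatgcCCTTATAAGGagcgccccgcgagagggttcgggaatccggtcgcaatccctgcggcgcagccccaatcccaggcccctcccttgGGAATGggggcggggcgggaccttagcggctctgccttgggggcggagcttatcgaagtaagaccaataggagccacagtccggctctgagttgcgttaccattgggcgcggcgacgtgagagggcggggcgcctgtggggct

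Vcl stood at 74.2, 74.8 and 70.1 TPM with vehicle and at 91.4, 94.3 and 90.6 TPM with RECTAS. The groups were well apart, with a log2 difference of 0.33 (SE 0.054) and an adjusted p of 0.249. The immediate early promoters, many of which SRF also serves, held the CArG box at 6 of 38 starts, 15.8%, in Dusp5, Egr2 and Zfp36, and the groups of those 3 genes overlapped.

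TGF-beta signalling, the main drive to matrix deposition in lung, stood higher by less. Of 28 genes tested, 27 were higher, 10 wholly above and 0 below, with a median of 0.18, or 0.11 with 6 wholly above after scaling. By unadjusted p, 10 were higher and 0 lower, and none passed the adjusted threshold. The 9 ligands and receptors were all higher, but only 1 lay wholly above, Tgfbr1, the type I receptor, at 14.0, 13.4 and 13.4 TPM against 16.0, 15.6 and 18.4 TPM. Among the intracellular members 6 of 9 lay wholly above, including Smurf2, a ubiquitin ligase that removes receptors, at 40.3, 42.0 and 42.2 TPM against 48.9, 54.8 and 52.4 TPM. Of the matrix proteins, Fn1, fibronectin, stood at 86.8, 101 and 99.4 TPM against 140, 132 and 105 TPM and lay above, while Col1a1, collagen type I, overlapped at 76.8, 60.6 and 57.6 TPM against 75.4, 71.4 and 60.6 TPM.

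Of 22 clock genes tested, 17 were higher, 8 wholly above and 0 below, with a median of 0.17, or 0.10 with 6 above and 1 below after scaling. At an unadjusted p of 0.05, 7 were higher and 0 lower, and none passed the adjusted threshold. The loop has activators, which bind E-boxes, and repressors, which they induce. Wholly above vehicle lay 6 of 12 repressors, with a median of 0.19, 0 of 4 activators, with a median of 0.11, and 2 of 6 output factors, with a median of 0.20. A difference between these roles was not tested. Besides Per1, Per2 stood at 17.9, 21.5 and 22.9 TPM with vehicle and at 28.8, 27.5 and 32.8 TPM with RECTAS. Cry1 stood at 6.27, 6.05 and 6.16 TPM against 7.27, 7.98 and 9.49 TPM. Both repressors were above vehicle in all 3 RECTAS libraries. The activators Arntl and Clock overlapped, and so did the repressor Nr1d1, at 178, 195 and 144 TPM against 197, 176 and 102 TPM. Dbp, an output factor, overlapped at 214, 232 and 202 TPM against 214, 177 and 136 TPM as deposited and lay wholly below vehicle after scaling. The E-box CACGTG was found at 6 of 28 clock gene starts, 21.4%, against 6.02% of all starts. Of the 5 genes with it, 3 lay wholly above vehicle as deposited.

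Genes of most stress response lists stood a little higher, with medians that were smaller after scaling. These medians are to be read against those over all genes, 0.058 as deposited and -0.0057 after scaling. Of 32 heat shock chaperones, 29 were higher, 14 wholly above and 0 below, with a median of 0.20. At an unadjusted p of 0.05, 13 were higher and 0 lower. After scaling 4 lay above and 0 below, with a median of 0.13. All 10 HSP70 and exchange factor genes and all 7 HSP40 genes were higher. Hspb8, a small chaperone, stood at 47.3, 49.7 and 51.8 TPM against 61.9, 62.0 and 57.3 TPM. The inducible pair Hspa1a and Hspa1b are near-identical copies, so their split is uncertain: Hspa1a stood at 3.86, 3.63 and 5.37 TPM against 8.46, 6.66 and 9.35 TPM, and Hspa1b at 4.69, 3.77 and 6.44 TPM against 8.60, 6.96 and 12.7 TPM. The element GAANNTTCNNGAA was found at 4 of 37 heat shock gene starts, 10.8%, against 0.466% of all starts. Of the 3 genes with it, 1 lay wholly above vehicle as deposited.

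Of 31 p53 targets, 26 were higher, 16 wholly above and 0 below, with a median of 0.19, or 0.12 with 10 above and 0 below after scaling. By unadjusted p, 14 were higher and 0 lower. Cdkn1a, the p21 inhibitor of cyclin-dependent kinases, stood at 34.1, 38.0 and 29.7 TPM against 45.2, 70.3 and 57.3 TPM. Sesn2, a sensor that restrains mTOR, stood at 6.23, 7.39 and 8.49 TPM against 11.5, 12.1 and 11.6 TPM, and the death receptor gene Fas at 43.0, 50 and 47.0 TPM against 57.8, 62.0 and 68.1 TPM. The groups were apart in all 3 genes.

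The integrated stress response through ATF4 had 21 of 29 genes higher, 11 above and 0 below, and a median of 0.12, which was 0.046 after scaling, with 8 above and 2 below. The unfolded protein response had 22 of 26 higher, 11 above and 0 below, and a median of 0.069, which was 0.0021 after scaling, with 4 above and 0 below. The latter median was close to that over all genes on both scales. It was 0.11 with RECTAS library 1 or RECTAS library 2 left out. By unadjusted p, 8 and 9 genes of the 2 lists were higher and 0 lower. Herpud1, a membrane protein of the degradation pathway of the endoplasmic reticulum, stood at 142, 163 and 162 TPM against 206, 208 and 191 TPM and was above vehicle throughout. Of 25 hypoxia and glycolysis genes, 22 were higher, 8 above and 0 below, with a median of 0.14, or 0.074 with 7 above after scaling, and 5 were higher by unadjusted p. Hk2, hexokinase 2, stood at 9.11, 9.99 and 11.7 TPM against 17.4, 15.9 and 21 TPM, and Pfkfb3, which makes an activator of glycolysis, at 35.1, 44.7 and 51.5 TPM against 72.9, 74.4 and 61.4 TPM. Both lay wholly above vehicle. None of the genes in these stress lists passed limma's adjusted threshold.

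The NRF2 list, of antioxidant and detoxifying enzymes, leaned the other way: 15 of 35 were higher, 4 above and 2 below, with a median of -0.040, and after scaling 0 lay above and 8 below. By unadjusted p 1 was higher and 1 lower, and none passed the adjusted threshold. Leaving out vehicle library 1 gave a median of 0.031, vehicle library 2 -0.10 and RECTAS library 1 -0.019. In vehicle library 1 Nqo1, a quinone reductase, stood at 16.4 TPM against 4.68 to 5.43 TPM in the other 5.

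**Figure D4:**
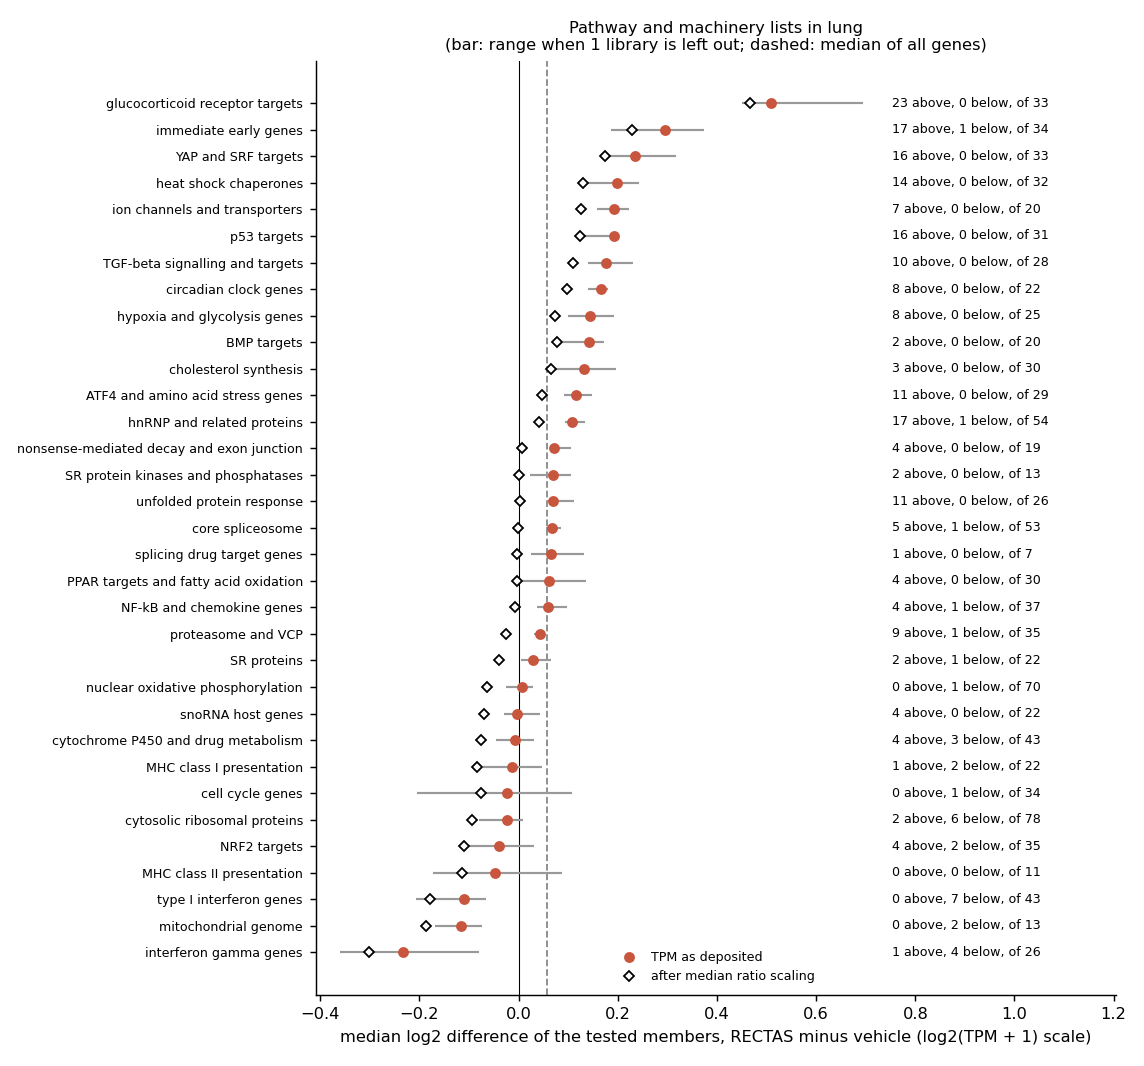
Median log2 difference, RECTAS minus vehicle (x axis), of the tested members of the pathway and machinery lists (y axis), as deposited (filled) and after median ratio scaling (open), with bars for the range when 1 library is left out and a dashed line at the median of all genes, 0.058. The glucocorticoid list is farthest to the right at 0.51, and the interferon gamma list is farthest to the left at -0.23.

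Most genes of the interferon lists stood lower. The lists hold antiviral genes and others that STAT and IRF factors switch on, and antigen presentation is given apart below. Of 43 type I interferon genes, 36 were lower, 7 wholly below and 0 above, with a median of -0.11. At an unadjusted p of 0.05, 7 were lower and 0 higher, and none passed the adjusted threshold. After scaling 11 lay below and 0 above, with a median of -0.18. Leaving out vehicle library 1 gave a median of -0.066, RECTAS library 1 -0.071, RECTAS library 2 -0.065 and RECTAS library 3 -0.21. Wholly below vehicle lay 6 of 34 effectors and 1 of 9 sensors and factors, and a difference between these 2 groups was not tested. Isg15, a ubiquitin-like modifier, stood at 53, 36.3 and 41.0 TPM with vehicle and at 24.2, 29.4 and 36.1 TPM with RECTAS, a log2 difference of -0.52 (SE 0.18) with an adjusted p of 0.338. Oasl2, an oligoadenylate synthetase-like protein, stood at 86.7, 78.2 and 68.0 TPM against 60.2, 62.5 and 65.8 TPM. Usp18, which removes Isg15 and damps the receptor, stood at 30.7, 28.1 and 29.3 TPM against 23.9, 25.6 and 26.7 TPM. Irf7, the factor that widens the response, stood at 34.7, 29.3 and 30.4 TPM against 25.1, 27.2 and 28.4 TPM. In each of the 4 every RECTAS library was below every vehicle library, Isg15 only just. The element GAAANNGAAA was found at 11 of 38 starts of the list, 28.9%, against 2.98% of all starts. Of the 11 genes with it, 1 lay wholly below vehicle as deposited and 0 above.

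Of 26 interferon gamma genes, 21 were lower, 4 wholly below and 1 above, with a median of -0.23, or -0.30 with 7 below and 1 above after scaling. By unadjusted p, 4 were lower and 1 higher, with 0 past the adjusted threshold. Leaving out vehicle library 1 gave -0.079 and leaving out vehicle library 3 gave -0.36. Gbp3, a guanylate-binding GTPase, stood at 45.6, 37.5 and 36.1 TPM against 29.4, 28.2 and 34.6 TPM, and Socs1, the feedback inhibitor of JAK kinases, at 2.40, 1.81 and 1.62 TPM against 1.13, 1.31 and 1.28 TPM. Ifngr1, a receptor chain, was the 1 gene above vehicle, at 129, 133 and 119 TPM against 143, 156 and 137 TPM. Antigen presentation genes had no common side. Of 22 for MHC class I, 10 were higher and 12 lower, 1 wholly above and 2 below, with a median of -0.014. Of 11 for MHC class II, 5 were higher and 6 lower with 0 apart, and the median was -0.048. After scaling the medians were -0.084 and -0.11. In class I 0 then lay above and 2 below, and in class II 0 lay apart. None of these genes passed the adjusted threshold.

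The NF-kB and chemokine list had no common side: 24 of 37 were higher, 4 wholly above and 1 below, with a median of 0.059, with a range of 0.037 (vehicle library 3 left out) to 0.098 (vehicle library 1 left out). After scaling 3 lay above and 1 below, with a median of -0.0070. By unadjusted p, 4 were higher and 1 lower, and none passed the adjusted threshold. The 1 wholly below was Il1b, the inflammatory cytokine interleukin 1 beta, at 4.21, 6.07 and 4.40 TPM against 1.82, 2.34 and 2.98 TPM, a log2 difference of -0.80 (SE 0.18).

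Transcripts of the splicing machinery itself, the process that RECTAS is named for, differed little. The 4 CLK kinases overlapped between groups. Clk1 stood at 284, 299 and 280 TPM with vehicle and at 333, 279 and 297 TPM with RECTAS, and only RECTAS library 1 was high. Of 13 SR protein kinases and phosphatases 10 were higher, 2 wholly above and 0 below, with a median of 0.070, and after scaling none lay apart. The median was 0.022 with RECTAS library 1 left out and 0.11 with vehicle library 2 left out. By unadjusted p 1 was higher. Top1, which encodes topoisomerase I, an enzyme that also phosphorylates SR proteins, stood at 39.6, 42.2 and 44.7 TPM against 46.1, 51.6 and 57.4 TPM, apart as deposited and overlapping after scaling.

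Srsf6, an SR protein tied to the action of RECTAS, stood at 128, 138 and 134 TPM with vehicle and at 132, 131 and 136 TPM with RECTAS, with a log2 difference of -0.0003 (SE 0.053). Of 22 SR and SR-like proteins tested, 14 were higher, 2 wholly above and 1 below, with a median of 0.030, or -0.040 with 1 above and 3 below after scaling. The median as deposited was 0.065 with vehicle library 2 left out, 0.0053 for vehicle library 3, 0.011 for RECTAS library 1 and 0.020 for vehicle library 1. By unadjusted p 2 were higher and 1 lower. The 2 groups of Srsf2, a founding SR protein, were apart at 217, 227 and 216 TPM against 256, 240 and 248 TPM. The 1 gene wholly below as deposited was Luc7l2.

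Luc7l2, a partner of the U1 particle in choosing the upstream splice site, had the smallest p of any gene lower with RECTAS. It lies at chr6:38551334-38609470 on the + strand. It stood at 164, 183 and 172 TPM with vehicle, 173 ± 9.63 (SD, n = 3), and at 124, 117 and 117 TPM with RECTAS, 120 ± 4.03 (SD, n = 3). All 3 RECTAS libraries were far below all 3 vehicle libraries. The log2 difference was -0.53 (SE 0.062) and the adjusted p 0.145 by limma, from 0.05 in 1 fit of 18 libraries to 0.620 without RECTAS library 1. In liver the log2 difference was -0.73 and in colon -0.56, and the lung difference did not pass the interaction test against either, with adjusted p of 0.718 and 0.9999.

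Of 54 hnRNP and related regulators, 48 were higher, 17 wholly above and 1 below, with a median of 0.11, or 0.041 with 7 above and 3 below after scaling. By unadjusted p, 12 were higher and 1 lower. The 1 wholly below as deposited was Rbm25, an RNA-binding partner of the U1 particle, at 88.4, 99.6 and 85.2 TPM against 74.8, 67.8 and 75.5 TPM. Nova2, an RNA-binding protein of neurons and endothelium, stood at 3.94, 4.31 and 4.46 TPM against 5.28, 6.94 and 5.67 TPM, and Mbnl2, a muscleblind regulator of tissue exons, at 115, 124 and 110 TPM against 135, 131 and 137 TPM. Of 53 core spliceosome genes, 41 were higher, 5 above and 1 below, with a median of 0.068, which was -0.0015 with 2 above and 4 below after scaling. By unadjusted p 2 were higher. Of 19 genes of nonsense-mediated decay and the exon junction, which remove and mark misspliced transcripts, 16 were higher, 4 above and 0 below as deposited and none apart after scaling, and 2 were higher by unadjusted p. None of the genes in the splicing lists passed limma's adjusted threshold.

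The 7 genes whose mutant transcripts are targets of splice correction gave 6 higher, 1 wholly above and 0 below, with none past an unadjusted p of 0.05. After scaling 0 lay above and 1 below, a gene not described here. Cftr, the chloride channel of airway epithelium, stood at 2.52, 2.37 and 2.67 TPM with vehicle and at 3.14, 2.81 and 3.90 TPM with RECTAS. Cftr was apart as deposited and overlapped after scaling. These mice carry no label of a splice mutation, and a change in exon use is not seen in a gene-level value.

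Among the cell types, markers of the alveolar epithelium stood higher. In bulk tissue, fewer cells of a type and less RNA per cell cannot be told apart. Of 21 type 2 markers, 19 were higher, 10 wholly above and 1 below, with a median of 0.23, or 0.16 with 5 above and 1 below after scaling, and 9 were higher and 0 lower by unadjusted p. Sftpa1, surfactant protein A, stood at 3183, 3141 and 3521 TPM with vehicle and at 4101, 3845 and 3918 TPM with RECTAS. Its groups were apart, with a log2 difference of 0.27 (SE 0.074) and an adjusted p of 0.290. Sftpd, surfactant protein D, stood at 773, 716 and 795 TPM against 903, 858 and 937 TPM, apart as deposited and overlapping after scaling. The core markers Sftpc and Lamp3 were likewise apart only as deposited, and Sftpb overlapped on both scales. Of 18 type 1 markers, 16 were higher, 6 wholly above and 0 below, with a median of 0.14, or 0.070 with 3 above after scaling, and 5 were higher by unadjusted p. Lmo7, a junction protein, stood at 207, 226 and 213 TPM against 264, 251 and 273 TPM. The core type 1 markers Ager, Hopx and Pdpn overlapped on both scales.

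Ciliated cell markers stood lower. Of 34 tested, 32 were lower, 3 wholly below and 0 above, with a median of -0.20, or -0.27 with 6 below and 0 above after scaling, and 2 were lower by unadjusted p. The median was -0.087 without vehicle library 3. Cfap126, a protein of ciliary positioning, stood at 58.7, 59.0 and 70.9 TPM with vehicle and at 49.3, 58.0 and 44.7 TPM with RECTAS. Tekt2, a tubulin-bound filament of the axoneme, stood at 19.6, 22 and 25.1 TPM against 18.77, 18.7 and 18.95 TPM. Both lay below vehicle, narrowly, and Foxj1, the master factor of motile cilia, overlapped at 66.6, 69.7 and 83.0 TPM against 62.0, 78.6 and 57.5 TPM. The RFX motif GTTGCCA was found at 9 of 34 ciliated gene starts, 26.5%, against 3.66% of all starts. Of the 9 genes with it, 0 lay wholly above or below vehicle as deposited. Club cell markers were split in sign, with 11 of 22 higher, while 2 lay wholly above and 4 wholly below. Their median of 0.018 ran from -0.10 without RECTAS library 2 to 0.12 without RECTAS library 3. After scaling 2 lay above and 6 below, with a median of -0.051. Scgb1a1, Cckar and Cldn10 lay wholly below vehicle on both scales. Cyp2f2 did so only after scaling, and Scgb3a2 overlapped on both.

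**Figure D5:**
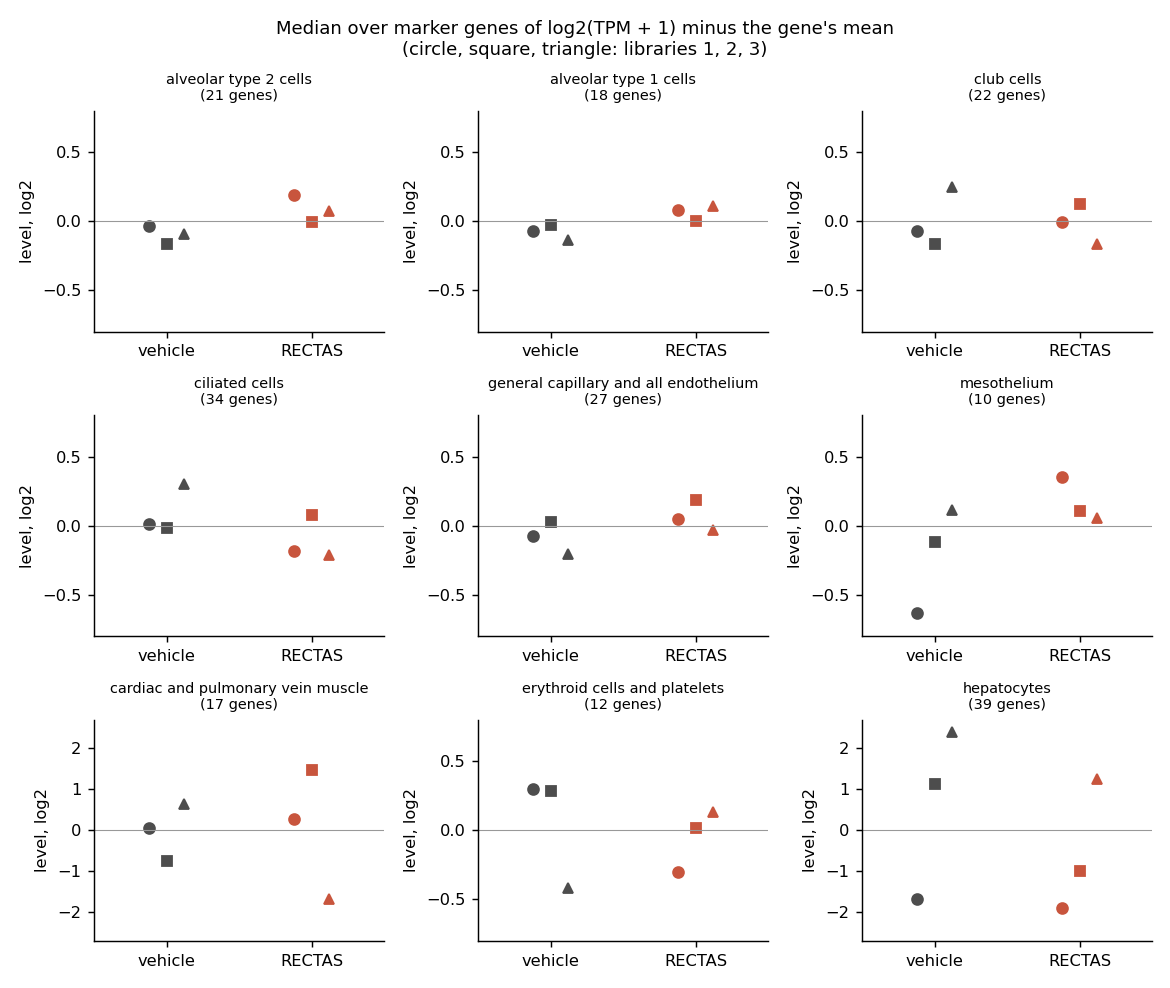
Level of 9 marker lists in each lung library (y axis: median over the list of log2(TPM + 1) minus the gene's mean over the 6 libraries; x axis: group; circle, square and triangle: libraries 1, 2 and 3). Levels are from TPM as deposited, and levels after scaling are not drawn. On this scale the alveolar type 2 and type 1 levels are apart between the groups, narrowly, and the other 7 overlap. The hepatocyte and cardiac panels have a wider axis.

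Of 27 endothelial markers, 23 were higher, 8 wholly above and 0 below, with a median of 0.14, or 0.067 with 2 above after scaling, and 6 were higher by unadjusted p. S1pr1, the sphingosine 1-phosphate receptor that seals capillaries, stood at 101, 126 and 124 TPM with vehicle and at 187, 202 and 210 TPM with RECTAS. The groups were far apart, with a log2 difference of 0.77 (SE 0.099) and an adjusted p of 0.177. The core endothelial markers Pecam1, Cdh5, Gpihbp1 and Kdr overlapped on both scales. All 10 aerocyte markers were higher, 4 wholly above, with a median of 0.15 that was 0.087 without vehicle library 3, and 2 lay above and 0 below after scaling. The core aerocyte markers Car4 and Ednrb overlapped on both scales. Of 26 fibroblast markers, 18 were higher, 7 wholly above and 0 below on both scales, with a median of 0.13. Pdgfra, the platelet-derived growth factor receptor of alveolar fibroblasts, stood at 56.3, 60.0 and 52.4 TPM against 82.1, 80.9 and 64.5 TPM. Dcn, another core fibroblast marker, overlapped at 123.5, 75.55 and 112 TPM against 89.4, 96.4 and 90.6 TPM, and Col1a1 overlapped as given above. Mesothelial markers, 9 of 10 higher with a median of 0.43, rested on vehicle library 1, without which the median was 0.19, and 1 lay wholly above and 0 below on both scales. Msln, mesothelin, stood at 5.90 TPM there and at 21.1 to 34.7 TPM in the other 5.

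Of 20 alveolar macrophage markers, 17 were higher, 4 wholly above and 0 below, with a median of 0.10, which was 0.066 without vehicle library 3, and 1 lay above after scaling. Chil3, a chitinase-like secreted protein of these cells, stood at 143, 176 and 156 TPM with vehicle and at 214, 211 and 208 TPM with RECTAS and was above vehicle throughout. The core macrophage markers Ear2 and Marco overlapped on both scales. Of 11 neutrophil markers, 9 were lower, 0 wholly above and 1 below on both scales, with a median of -0.17, against -0.074 when vehicle library 1 was left out, -0.39 for RECTAS library 2 and -0.28 for RECTAS library 3. No cell type marker passed limma's adjusted threshold. Of 39 hepatocyte markers tested, 0 lay wholly above or below on either scale. Their median of -1.22 ran from -2.36 without vehicle library 1 to -0.29 without vehicle library 3. Of 17 cardiac markers 1 lay wholly above and 0 below on both scales, with a median that ran from -0.76 without RECTAS library 2 to 0.87 without RECTAS library 3.

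Genes with small p also included these. Tinagl1, a matrix protein of basement membranes, stood at 89.3, 91.9 and 94.0 TPM with vehicle and at 126, 132 and 132 TPM with RECTAS. Snrk, a kinase related to AMPK, stood at 67.4, 71.8 and 63.8 TPM against 99.4, 100.1 and 95.6 TPM, and Pxdc1, whose product has a PX domain, at 84.4, 94.6 and 96.2 TPM against 137, 146 and 154 TPM. The adjusted p of each was 0.145 by limma, and the groups were well apart in all 3. Timp3, the matrix-bound inhibitor of metalloproteinases, stood at 271, 265 and 253 TPM against 385, 356 and 353 TPM. Nes, the intermediate filament nestin, stood at 27.2, 28.6 and 32.3 TPM against 44.8, 47.2 and 45.2 TPM. Ran, the GTPase of nuclear transport, stood at 80.1, 72.5 and 75.2 TPM against 119, 103 and 115 TPM. Rhob, an early-response GTPase of endothelium, stood at 86.9, 112 and 131 TPM against 217, 224 and 202 TPM, a log2 difference of 0.98 (SE 0.14) with an adjusted p of 0.237. In each of these the lowest RECTAS value exceeded the highest vehicle value.

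Fewer genes stood lower. Cckar, the cholecystokinin A receptor, stood at 65.1, 63.3 and 67.3 TPM with vehicle and at 49.7, 50.7 and 53.9 TPM with RECTAS, with a log2 difference of -0.34 (SE 0.058) and an adjusted p of 0.249. Lyst, a regulator of lysosome size, stood at 5.92, 9.44 and 10.4 TPM against 4.10, 4.50 and 3.99 TPM. Sox2, the transcription factor of airway epithelium, stood at 14.2, 14.3 and 14.8 TPM against 9.79, 12.3 and 9.61 TPM, and Dnah8, a heavy chain of axonemal dynein, at 10.2, 10.8 and 5.51 TPM against 4.76, 4.07 and 3.85 TPM. The groups did not overlap in these 4 genes on either scale.

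Ion and water handling and drug metabolism gave small lists of differences. Of 20 channels and transporters tested, 16 were higher, 7 wholly above and 0 below, with a median of 0.19, or 0.13 with 3 above and 1 below after scaling, and 5 were higher by unadjusted p. Kcne2, a potassium channel subunit, stood at 13.9, 12.3 and 15 TPM against 21.8, 18.3 and 22.5 TPM and was above vehicle throughout. Of 43 P450 and drug metabolism genes, 21 were higher, 4 wholly above and 3 below, with a median of -0.0069, or -0.075 with 3 above and 6 below after scaling. The median as deposited ran from -0.046 with vehicle library 2 left out to 0.032 with RECTAS library 3 left out. Cyp2b10, the P450 that the receptor CAR induces, stood at 195, 206 and 201 TPM against 248, 230 and 238 TPM. Cholesterol synthesis genes were higher in 28 of 30, 3 wholly above, with a median of 0.13 against 0.064 when vehicle library 1 was left out, 0.082 for RECTAS library 1 and 0.20 for vehicle library 3. After scaling 1 of them lay above and 0 below. Of 78 cytosolic ribosomal protein genes, 57 were lower, 2 wholly above and 6 below as deposited, and 0 above and 12 below after scaling. Of the 13 genes of the mitochondrial genome, 10 were lower, 2 wholly below as deposited and 5 after scaling. None of these passed limma's adjusted threshold.

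The lung difference was set against those of liver and colon in interaction tests. Past an adjusted p of 0.05, 1 gene (0.00637%) differed from liver and 2 (0.0127%) differed from colon, and 1475 (9.4%) and 518 (3.3%) did so at an unadjusted p of 0.05. They are 4632432E15Rik and Gm43198, both unclassified transcripts of low level. Neither would have passed the lung filter without its RECTAS libraries, and 4632432E15Rik did not pass the same filter in liver or in colon. The first lies at chr3:10220995-10223433 on the - strand, overlaps no annotated gene, and stood at 0.58, 0.75 and 0.78 TPM with vehicle and at 2.5, 1.87 and 1.81 TPM with RECTAS in lung. The second lies at chr6:3334633-3334958 on the + strand, antisense to an exon of Gm20559, and stood at 1.3, 0 and 0 TPM with vehicle and at 4.80, 5.16 and 7.00 TPM with RECTAS. Both were higher in all 3 RECTAS lungs than in any vehicle lung, and neither passed the lung test itself, with adjusted p of 0.249 and 0.237 by limma. In 1 fit of all 18 libraries their lung adjusted p by limma were 0.000615 and 0.00158. No member of the lists above passed an interaction test, so none of their differences is shown to depart from those in liver or colon.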

How the data were processed

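Poly(A) RNA was extracted with TRIzol and made into libraries with a stranded TruSeq kit, per the labels' protocols, from lung, liver and colon, 3 libraries for each tissue and treatment. The authors deposited estimated abundance as TPM, 1 file a library, for 55401 genes, and no counts. Per the submitters' processing notes the tools and build included HISAT2 2.2.0, RSEM 1.3.0 and GRCm38. The annotation release, filters and read depth, and what each tool did, were not given in the sources used here. TPM sum to a fixed total, so a large change in an abundant gene shifts all others. Gene IDs matched GENCODE M21 for 55141 genes.

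Genes with TPM of at least 1 in at least 3 of the 6 lung libraries were kept. The 6 libraries, and no others, entered limma 3.58.1 (R 4.3.3), fitted to log2(TPM + 1) with a mean-variance trend, with Benjamini-Hochberg adjustment over all 15699 genes and a threshold of 0.05. Adding 1 before the logarithm makes differences of genes with low TPM smaller than their true fold. Interaction tests added liver or colon libraries in 1 model. The script was tested on simulated data. No 2 libraries held identical values. "Wholly above" or "below" means that the 3 values of each group do not overlap. The alternatives were other pseudocounts and filters, median ratio and quantile scaling, removal of abundant, liver or short genes, Alb as a covariate, a replicate block, array weights, 1 fit of 18 libraries and leaving out each library.

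The members, the 57 gene lists (1470 symbols, 1376 tested) and the named-gene rule were chosen with earlier results of these data known. Named genes are those past the threshold, the 15 per direction with the smallest p and the 10 with the largest difference among genes of at least 5 TPM whose groups do not overlap, core list members, up to 4 members per list with the smallest p, and genes past the threshold in an interaction test. Predicted genes, pseudogenes and receptor segments are named only when past a threshold or where said. Cry1, Dusp5, Egr2, Klf2, Lats2, Mt1, Mt2, Nr4a3, Sgk1, Slc10a6, Tat, Zbtb16 and Zfp36 are list members outside the rule, chosen after their values were seen. RefSeq promoters cover 250 bases before each start. A few list members are not reported here by name.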

Additional observations from a re-analysis of the deposited data

Results flagged for a closer look

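Differences between tissues were flagged for 2 genes because the interaction test itself passed an adjusted p of 0.05. For 4632432E15Rik the lung difference exceeded the liver difference by 0.854 on the log2 scale (SE 0.118, adjusted p = 0.0408, limma) and the colon difference by 0.84 (SE 0.118, adjusted p = 0.0249, limma). The lung difference of 4632432E15Rik was itself 0.84. In liver and in colon the gene did not pass the filter, so its lung difference was set against tissues where it was below that level. For Gm43198 the lung difference exceeded the colon difference by 3.34 (SE 0.368, adjusted p = 0.00247, limma), and against liver the adjusted p was 0.0717. Both genes were higher in 3 of 3 RECTAS lungs than in any vehicle lung, and both were low, at most 2.5 and 7.00 TPM, where the value added before the logarithm bears on the size of the difference. The groups of 3 libraries were too small for single libraries to be tested as outliers.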

How the results depend on the processing

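Removal of Scgb1a1 and of genes under 300 nt were alternatives chosen after seeing the data. The 1 gene called in lung became 37 in 1 fit of 18 libraries, 4 with array weights and 0 without genes under 300 nt. That last setting removes Gm25791 itself, which has 137 bases, so the call could not have been kept there. Without each library the count ran from 1 to 2, with 2 called without vehicle library 1 or without RECTAS library 3. It was 1 under the other settings run, the replicate block included. The lung minus liver count, 1 as reported, was 0 with a pseudocount of 0.1 TPM, a filter of 5 TPM, median ratio scaling, quantile scaling or the replicate block and 16 with a pseudocount of 5 TPM; without each library it ran from 0 to 11, the highest without vehicle library 3. The lung minus colon count, 2 as reported, was 1 with a pseudocount of 0.1 TPM, either scaling or the replicate block, 0 with a filter of 5 TPM and 5 with a pseudocount of 5 TPM; without each library it ran from 1 to 12, the highest without vehicle library 3. For the pairing of same-numbered libraries, the correlations of deviations from the group means over 11718 genes were 0.411, -0.000139 and 0.275 for numbers 1, 2 and 3. RECTAS libraries 1 and 3 were each most like the vehicle library of their number. RECTAS library 2 was like none, at -0.0062, -0.000139 and 0.00662 with vehicle libraries 1, 2 and 3. These values do not settle whether the numbers mark pairs. The labels do not say what the numbers mean, so the main test did not pair the libraries. No named gene with an unadjusted p under 0.05 before or after changed sign under any setting run, and of the list medians 1052 moved by less than the spread of the libraries and 86 by more. Medians of the mitochondrial list without mitochondrial genes and of the hepatocyte list without liver genes could not be computed. Depth is unknown, and with 3 libraries a group and a median SE of 0.106 on the log2 scale the precision is set by the number of libraries.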

Other observations

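Some secreted genes of the conducting airway varied widely between libraries of both groups. Bpifa1, an antimicrobial secreted protein of the upper airways, stood at 2.25, 10.8 and 206 TPM in vehicle libraries 1, 2 and 3, and reached 191, 543 and 8.58 TPM in RECTAS libraries 1, 2 and 3. Reg3g, an antibacterial lectin, stood at 1.46, 1.56 and 33.9 TPM against 34.5, 77.3 and 1.86 TPM, and Tff2, a mucosal trefoil peptide, at 2.95, 2.04 and 15.9 TPM against 9.47, 27.5 and 3.03 TPM. All 3 genes were high in vehicle library 3 and RECTAS libraries 1 and 2 and low in the other 3. Cardiac myosin Myh6 was also highest in RECTAS library 2, at 254 TPM, and lowest in RECTAS library 3, at 10.6 TPM. These genes were picked after their values were seen, and no test was made of them as a set.

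Rpl38-ps2, a processed pseudogene of a ribosomal protein gene, was lower in every RECTAS library of each tissue than in any vehicle library of that tissue. In lung it stood at 85.7, 77.6 and 53.5 TPM with vehicle and at 32.1, 36.8 and 33.6 TPM with RECTAS, a log2 difference of -1.03 with an adjusted p of 0.249 by limma. In colon it stood at 42.8, 70.9 and 37.9 TPM against 24.5, 10.9 and 26.1 TPM, and in liver at 14.3, 31.5 and 12.3 TPM against 7.83, 5.87 and 9.49 TPM. It was picked after its values were seen, and its reads cannot be told apart here from those of its parent gene or other copies.

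The copies of 7SL RNA, Rn7s1 and Rn7s2, show how TPM of near-identical genes can part. Both were at 132.5 TPM in vehicle library 2 and at 37.2 TPM in vehicle library 3, but in vehicle library 1 Rn7s1 stood at 124 TPM and Rn7s2 at 0, and in RECTAS library 2 Rn7s1 stood at 0 and Rn7s2 at 187 TPM.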
